A study of Mus musculus with 1931 samples.

Results

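The genes described here are 9 regulators of the G1 phase of the cell cycle: the D-type cyclins Ccnd1, Ccnd2 and Ccnd3, the E-type cyclins Ccne1 and Ccne2, the CIP/KIP inhibitor Cdkn1b (p27Kip1) and the INK4 inhibitors Cdkn2a, Cdkn2b and Cdkn2c. They were taken by name, with earlier results of these data known, and all 9 were among the 20999 genes of the expression table. Single-cell transcriptomes had been made by Smart-Seq2, a full-length plate-based method, from mouse RtL-embryoids and from 2D cultures. RtL-embryoids are embryo-like aggregates grown from 3 lines of embryonic stem cells (ESCs) in agarose microwells: Kermit ESCs with an Oct3/4-GFP reporter, 5-Factor ESCs with doxycycline (DOX)-inducible Cdx2, Tfap2c, Eomes, Gata3 and Ets2, and iGATA6 ESCs with inducible Gata6 and an mCherry label. The lines received 2 µg/ml DOX for 3 days and then grew for 24 h without it.

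Correctly assembled structures were handpicked and pooled, and their cells were sorted on GFP, mCherry and CD40 into plates 3, 4 and 5. The labels give the well of each cell and not its compartment. Columns 1 to 8 (Epi wells), 9 to 16 (VE wells) and 17 to 24 (ExE wells) are therefore described as column blocks of a plate, named for the epiblast-like, visceral endoderm-like and extraembryonic ectoderm-like cells they were taken to hold. The 2D cultures were Kermit ESCs in 2i/LIF medium without DOX, iTSCs and iXEN cells. The iTSCs were made from 5-Factor ESCs in trophoblast stem cell medium conditioned by feeder fibroblasts, with FGF4 and heparin. The iXEN cells were made from mCherry-labelled iGATA6 ESCs in extraembryonic endoderm medium, and both had the same DOX schedule. Each 2D culture filled 1 plate. All cells of a 3D group came from 1 pool of structures and all cells of a 2D group from 1 culture, so plates 3, 4 and 5 are repeat plates of 1 pool, cells are not replicates, and no test was run. The 3D and 2D cells differ in culture, plate and number of genes found at once, and these cannot be told apart. The 3 lineages also start from different ESC lines, in 3D and in 2D, so lineage and line cannot be told apart either.

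Of 1931 wells, 39 held no values and 1406 passed the minimum of 2500 genes above 0, of which 982 were 3D and 424 were 2D cells. The median number of genes was 4199 to 6684 in the 9 plate-by-block groups of 3D wells and 8537 to 9094 in the 2D cultures, so a gene at a low level was more likely to be listed at 0 in a 3D cell. Read depth per cell is not used here, since the table holds TPM only. The blocks carried their markers: the summed mean level of 7 Epi markers was 37.2 TP10k in Epi wells, 6.40 in VE wells and 2.16 in ExE wells, that of 8 VE markers was 0.0674, 22.4 and 2.07, and that of 7 ExE markers was 0.615, 0.590 and 5.12. TP10k is the TPM of a gene after each cell was scaled to a sum of 10000, a level per transcript length that allows genes to be compared. Pou5f1 and Utf1 went against the VE label, at 4.53 and 1.69 TP10k in VE wells and 1.60 and 1.35 in iXEN cells. In iTSCs the sum of the Epi markers (9.72 TP10k, of which Utf1 gave 6.32) exceeded that of the ExE markers (7.79). Among these 3 lists the own list had the highest sum in ESCs (51.65) and iXEN cells (30.85). In single wells, the own marker list was the highest of the 3 in 314 of 314 Epi wells, 308 of 315 VE wells and 232 of 353 ExE wells, where 53 wells scored highest for Epi and 68 for VE markers, and in 101 of 141 iTSCs, where the other 40 scored highest for Epi markers. Results for ExE wells and iTSCs are given for all wells and, where they move, for the wells that match. The summed level of 8 fibroblast markers lay between 0.0159 and 0.0478 TP10k in the 6 groups, none of the 8 reached 0.1, and at most 2 of them were at 0 in a group (Col3a1 and Twist2 in Epi wells). Of 6 giant cell markers Hand1, which is also in the ExE list, alone exceeded 0.1 TP10k (0.838 in ExE wells and 1.90 in iTSCs), and Prl3b1 was at 0 in all groups. The summed level of 7 parietal endoderm genes was 69.8 in VE wells and 114.5 in iXEN cells, of which Sparc gave 59.9 and 105.7.

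Progress through G1 is governed by cyclin-dependent kinases. D-type cyclins, made in response to mitogens, activate CDK4 and CDK6, E-type cyclins activate CDK2, and both kinases phosphorylate the retinoblastoma protein, which releases E2F factors to switch on genes of DNA replication. INK4 proteins bind CDK4 and CDK6 and block the cyclin D step, whereas p27Kip1 binds cyclin-CDK2 complexes. Pluripotent cells of the early embryo are known for a short G1 with high cyclin E, and D-type cyclins appear in lineage-specific patterns as the lineages separate.

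The D-type cyclins are paralogues, and their coding starts are shown because they carry the motif through which these proteins bind the retinoblastoma protein. The first 45 coding bases of 1 GRCm38 transcript per gene (Gencode vM21) are printed 5′ to 3′ with the codons of the motif (Leu-x-Cys-x-Glu) in capitals. The first coding base lies on chromosome 7 at 144939693 (minus strand) in Ccnd1, on chromosome 6 at 127150773 (minus strand) in Ccnd2 and on chromosome 17 at 47593655 (plus strand) in Ccnd3.
Ccnd1: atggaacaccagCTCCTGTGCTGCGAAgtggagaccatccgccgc
Ccnd2: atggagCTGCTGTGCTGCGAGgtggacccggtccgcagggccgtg
Ccnd3: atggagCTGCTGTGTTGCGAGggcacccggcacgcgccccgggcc
The motif begins at codon 5 in Ccnd1 and at codon 3 in Ccnd2 and Ccnd3. The coding sequences were 68.1% identical between Ccnd1 and Ccnd2, 64.7% between Ccnd1 and Ccnd3 and 68.1% between Ccnd2 and Ccnd3, and Ccne1 and Ccne2 were 60.9% identical. No stretch of 31 bases, the word length of the pseudoaligner by default, was shared between transcripts of any 2 members, so reads of that length tell the paralogues apart. Words shared with other genes made up 22.3% of those of Ccnd1 (most with LTO1), 15.6% of Ccne2 (most with Ints8), 7.95% of Ccnd3, 6.95% of Ccnd2 and under 0.1% of the others, and where transcripts of neighbours overlap in this way the split of reads is uncertain.

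The INK4 genes Cdkn2a and Cdkn2b lie side by side on chromosome 4, at 89274471-89294653 and 89306299-89311039 (GRCm38, minus strand). Cdkn2a makes p19Arf, which acts on the p53 pathway, from its upstream start and p16Ink4a from its downstream start. The expression table has 1 row for both, and the starts are shown because the levels below cannot be assigned to either. The windows run from 250 bases before to 50 after each start (RefSeq, GRCm38.p6, minus strand, 5′ to 3′). Capitals mark matches to an E2F word (TTTCGCGC, TTTGGCGC or TTTCCCGC) or a cyclic AMP response element (TGACGTCA) on either strand.
Cdkn2a upstream start, chr4:89294570-89294869: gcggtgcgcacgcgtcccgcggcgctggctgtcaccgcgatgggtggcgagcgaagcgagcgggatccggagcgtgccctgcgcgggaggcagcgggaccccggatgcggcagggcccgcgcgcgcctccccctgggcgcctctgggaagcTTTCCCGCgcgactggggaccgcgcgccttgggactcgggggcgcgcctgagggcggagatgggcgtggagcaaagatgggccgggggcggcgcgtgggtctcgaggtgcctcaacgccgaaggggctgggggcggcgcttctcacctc
Cdkn2a downstream start, chr4:89282143-89282442: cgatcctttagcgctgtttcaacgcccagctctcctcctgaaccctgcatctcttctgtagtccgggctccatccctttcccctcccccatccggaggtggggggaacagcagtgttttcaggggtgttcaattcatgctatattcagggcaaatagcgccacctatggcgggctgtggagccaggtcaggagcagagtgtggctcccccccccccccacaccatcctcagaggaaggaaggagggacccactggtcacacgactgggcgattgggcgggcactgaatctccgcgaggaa
Cdkn2b, chr4:89310983-89311282: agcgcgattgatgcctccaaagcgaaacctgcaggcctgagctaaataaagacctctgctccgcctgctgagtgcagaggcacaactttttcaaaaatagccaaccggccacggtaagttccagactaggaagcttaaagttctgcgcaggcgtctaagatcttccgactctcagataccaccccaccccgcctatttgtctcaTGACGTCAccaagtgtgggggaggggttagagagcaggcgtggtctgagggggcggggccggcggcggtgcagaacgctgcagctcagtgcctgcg
Promoters were given for 6 members (9 windows), namely Ccnd3, Ccne1, Cdkn1b, Cdkn2a, Cdkn2b and Cdkn2c, and those of Ccnd1, Ccnd2 and Ccne2 are not shown. An E2F word occurred in 1 of the 9 windows, at the upstream Cdkn2a start, and in 1.845% of all 32851 promoters. The cyclic AMP word occurred at Cdkn2b and in 1.79% of promoters. These matches describe the letters only.

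Ccnd3 was the most abundant of the 9 members in every group, and the lineages differed in which other D-type cyclin they added: Ccnd1 in Epi wells and ESCs, Ccnd2 in VE wells and iXEN cells, and neither above 2.62% of the D-type sum in ExE wells and iTSCs. Ccnd3 reached 3.47, 3.14 and 3.08 TP10k in Epi wells of plates 3, 4 and 5. It stood at 2.00, 2.31 and 1.44 in VE wells and at 5.59, 5.79 and 4.50 in ExE wells. The order ExE above Epi above VE held on each plate, with no overlap between the groups. In 2D culture Ccnd3 was far higher in iTSCs, at 18.6 TP10k, than in ESCs (10.1) and iXEN cells (3.59). It was found in 90.8% of Epi, 85.1% of VE and 90.4% of ExE wells and in 100%, 99.3% and 100% of ESCs, iXEN cells and iTSCs, and its middle range over cells, from the 25th to the 75th percentile, was 1.68 to 7.74 TP10k in ExE wells and 11.6 to 24.5 in iTSCs.

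Ccnd1, the D-type cyclin best known as a target of mitogen signalling, was at 0.853, 0.638 and 0.532 TP10k in Epi wells. In VE wells it was at 0.00607, 0.0109 and 0.00280, and in ExE wells at 0.0410, 0.0482 and 0.0270. The 3 groups did not overlap. ESCs had 1.27 TP10k, iTSCs 0.0814 and iXEN cells 0.0348, the last within the range of the ExE wells. Ccnd1 was found in 206 of 314 Epi wells (65.6%, exact 95% interval 60.1 to 70.9) and in 141 of 142 ESCs, but in 13 of 315 VE wells (4.13%, 2.22 to 6.95) and 26 of 353 ExE wells (7.37%, 4.87 to 10.6). Intervals here and below cover counting error only.

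Ccnd2 was at 0.363, 0.405 and 0.442 TP10k in VE wells and at 0.801 in iXEN cells. Epi wells gave 0.253, 0.1253 and 0.0779 and ExE wells 0.145, 0.135 and 0.152, so that these groups overlapped with each other and stayed below the VE wells on each plate. ESCs (0.0497) and iTSCs (0.0122) had the lowest levels. In Epi wells 40 of 314 cells (12.7%, 9.26 to 16.9) were above 0, with a median of 1.005 TP10k among them. In iXEN cells 108 of 141 (76.6%) were above 0 and in VE wells 112 of 315 (35.6%, 30.3 to 41.1).

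**Figure D1:**
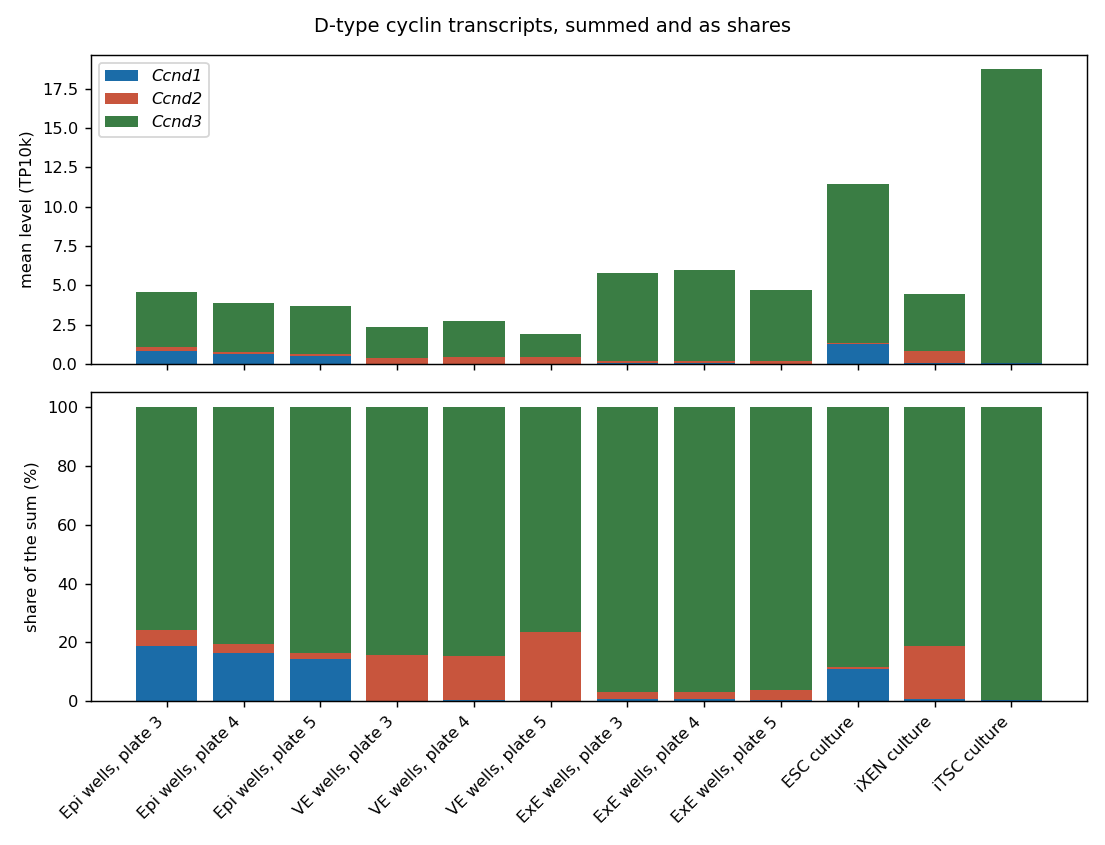
Mean level (upper panel, TP10k) and share of the D-type cyclin sum (lower panel, %) of Ccnd1, Ccnd2 and Ccnd3 in the 9 plate-by-block groups of 3D wells and the 3 cultures; each bar is 1 group of cells. Ccnd3 makes up at least 75.8% of each bar, Ccnd1 appears in Epi wells and ESCs, and Ccnd2 in VE wells and iXEN cells.

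The summed D-type cyclin level was 4.05 TP10k in Epi, 2.34 in VE and 5.49 in ExE wells, against 11.5 in ESCs, 4.42 in iXEN cells and 18.7 in iTSCs. Ccnd3 made up 79.7%, 82.6% and 96.7% of the sum in Epi, VE and ExE wells and 88.5%, 81.1% and 99.5% in ESCs, iXEN cells and iTSCs. Ccnd1 made up 16.6% of the sum in Epi wells and 11.1% in ESCs, and Ccnd2 17.2% in VE wells and 18.1% in iXEN cells. Within single cells, Ccnd3 was the highest of the 3 in 81.2% of Epi, 80.0% of VE and 87.8% of ExE wells, and Ccnd1 was the highest in 13.4% of Epi wells and Ccnd2 in 7.62% of VE wells. No D-type cyclin was found in 4.14% of Epi, 11.1% of VE and 9.07% of ExE wells, and the share in VE wells was 3.60%, 8.41% and 22.7% on plates 3, 4 and 5, beside median gene numbers of 6622, 4913 and 4957. Every 2D cell had at least 1.

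Ccne1, the main cyclin E of these cells, followed the order Epi above ExE above VE on each plate. Its level was 2.27, 2.34 and 2.77 TP10k in Epi wells. ExE wells gave 1.39, 1.502 and 2.19 and VE wells 0.849, 1.24 and 1.15. The 3 groups did not overlap over all plates, but ExE wells that matched their markers gave 1.63, 1.885 and 2.64, the last inside the range of the Epi wells, and the log2 ratio of ExE to Epi wells was -0.27 there against -0.54 in all wells. ESCs had the highest level at 3.61, iTSCs (2.42) lay within the range of the Epi wells and iXEN cells (1.17) within that of the VE wells. Ccne1 was found in 86.9% (82.7 to 90.5) of Epi, 74.9% (69.8 to 79.6) of VE and 71.4% (66.4 to 76.1) of ExE wells and in over 94% of the cells of each culture.

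Ccne2 was lower and showed no such order. Its level was 0.146, 0.0738 and 0.270 TP10k in Epi wells. VE wells gave 0.176, 0.291 and 0.286 and ExE wells 0.130, 0.152 and 0.240. All 3 ranges overlapped, and ESCs (0.202) fell inside all of them. The iXEN cells (0.165) fell inside those of the Epi and ExE wells and iTSCs (0.0984) inside that of the Epi wells. Ccne1 made up 93.8%, 81.2% and 90.7% of the cyclin E sum in Epi, VE and ExE wells, the lowest share being that of the VE wells, which were also lowest in Ccne1. Both E-type cyclins were found together in 18.8% of Epi, 29.2% of VE and 22.95% of ExE wells.

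Cdkn1b differed little between the 3D lineages. Its level was 0.228, 0.2001 and 0.230 TP10k in Epi wells. VE wells gave 0.231, 0.222 and 0.278 and ExE wells 0.196, 0.184 and 0.179. Epi and VE wells overlapped, while ExE wells lay just below both. All 9 values exceeded those of iXEN cells (0.0761), ESCs (0.0611) and iTSCs (0.0479). In ExE wells that matched their markers Cdkn1b was at 0.2008, 0.125 and 0.150, the first inside the range of the Epi wells. The log2 ratio of ExE to Epi wells was -0.43 there against -0.22 in all wells. The share of cells with Cdkn1b did not follow its level: it was 57.6%, 68.3% and 61.2% in Epi, VE and ExE wells and 78.2%, 69.5% and 55.3% in ESCs, iXEN cells and iTSCs. Among cells above 0 the median was 0.313, 0.283 and 0.205 TP10k in the 3D wells and 0.0436, 0.0841 and 0.0535 in the cultures, while 3D cells had fewer genes in all. The part of gene number in this difference was not tested beyond the window of 5000 to 8000 genes given below.

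The INK4 genes were scarce. In 3D Cdkn2a and Cdkn2b were highest in ExE wells, and Cdkn2c had no such order, with VE wells (0.0214 TP10k) above ExE wells (0.0200) on plate 3. Cdkn2a was at 0.270, 0.150 and 0.131 TP10k in ExE wells. Epi wells gave 0.117, 0.0292 and 0.0424 and VE wells 0.0980, 0.0620 and 0.0490, which overlapped with each other and not with the ExE wells. In ExE wells that matched their markers Cdkn2a was at 0.334, 0.164 and 0.101, the last inside the range of the Epi wells. The cultures were alike, at 0.202 in iXEN cells, 0.201 in ESCs and 0.192 in iTSCs, within the range of the ExE wells. Cdkn2a was found in 28.6% (23.95 to 33.6) of ExE, 13.02% (9.51 to 17.2) of VE and 9.87% (6.81 to 13.7) of Epi wells. In ExE wells the share was 49.2%, 17.1% and 18.4% on plates 3, 4 and 5, beside median gene numbers of 6684, 5126 and 4552. The shares in the cultures were larger, at 78.9% of ESCs, 59.6% of iXEN cells and 48.9% of iTSCs, beside the larger number of genes per cell.

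Cdkn2b was at 0.107, 0.0726 and 0.0975 TP10k in ExE wells, at 0.0398, 0.0202 and 0.0609 in Epi wells and at 0.0132, 0.0137 and 0.00690 in VE wells. The 3 groups did not overlap, and the cultures lay between 0.0432 and 0.0625. The highest of the 114 ExE cells of plate 5 stood at 6.73. In ExE wells that matched their markers the levels were 0.0968, 0.0948 and 0.0302, so that they overlapped the Epi wells and plate 5 lay below its Epi wells (0.0609). In ExE wells 47 of 353 cells (13.3%, 9.95 to 17.3) held it and 95.9% of its sum came from the 10% of cells with the highest values. Cdkn2c was found in 1 of 314 Epi, 14 of 315 VE and 20 of 353 ExE wells. It was at 0 in the Epi wells of plates 4 and 5, where 0 of 107 and 0 of 106 cells allow shares of up to 2.80% and 2.83% by the limit of 3 counts, with exact upper bounds of 3.39% and 3.42%. It was found in 11.3% of iTSCs, and its highest mean level was 0.0300 TP10k, in ExE wells of plate 5. At least 1 INK4 gene was found in 38.8% of ExE, 20.6% of VE and 14.97% of Epi wells, and Cdkn2a and Cdkn2b were found together in 22 of 353 ExE wells.

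**Figure D2:**
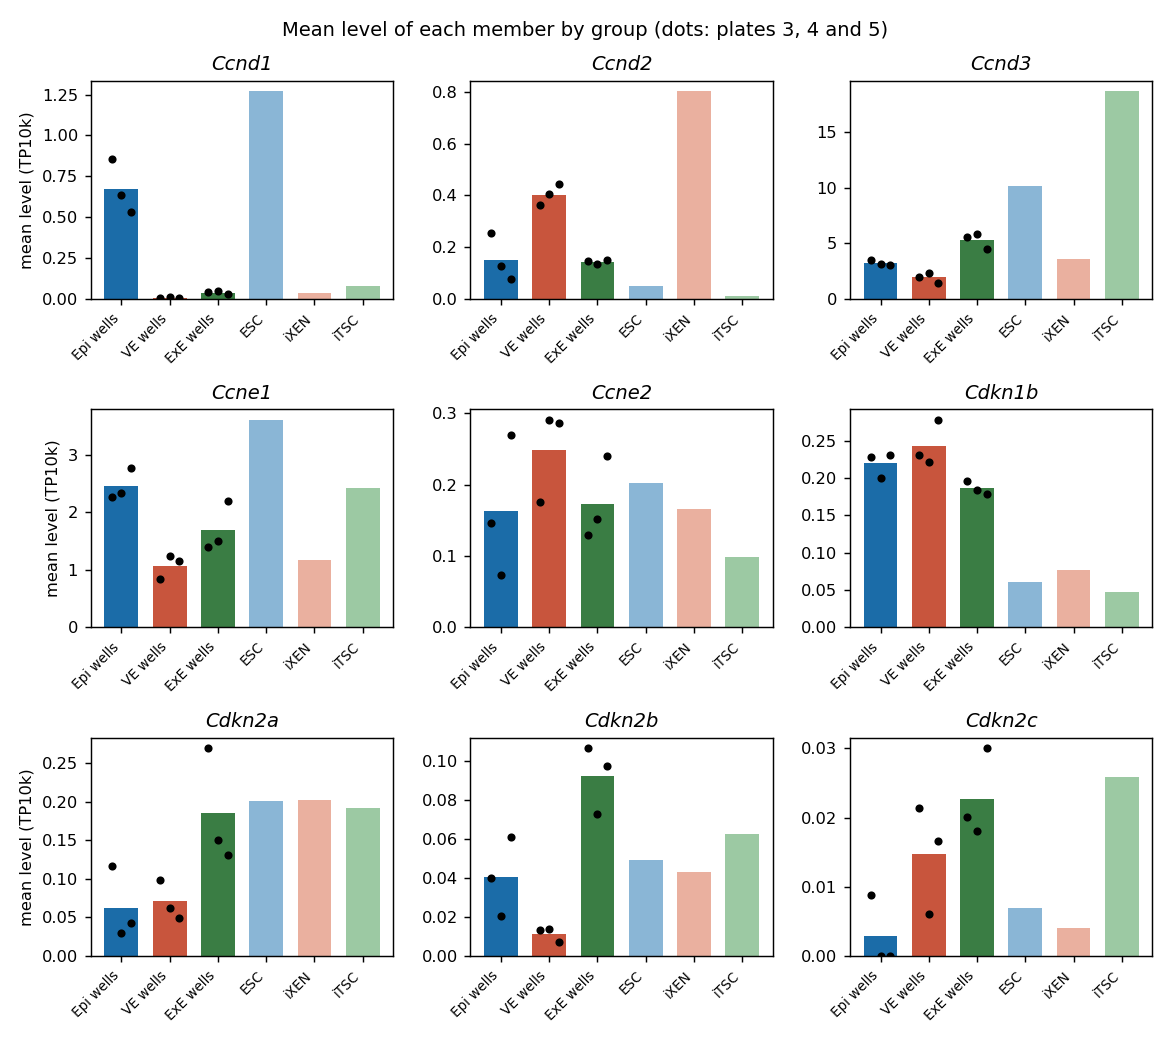
Mean level (TP10k, linear axes from 0, one scale per gene) of each member; bars are means over all cells of a group and dots are plates 3, 4 and 5 of the 3D wells. Ccnd1 is highest in Epi wells and ESCs, Ccnd2 in VE wells and iXEN cells, Ccnd3 in ExE wells among the 3D groups and iTSCs among the cultures, and Cdkn1b is higher in all 3D wells than in any culture.

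**Figure D3:**
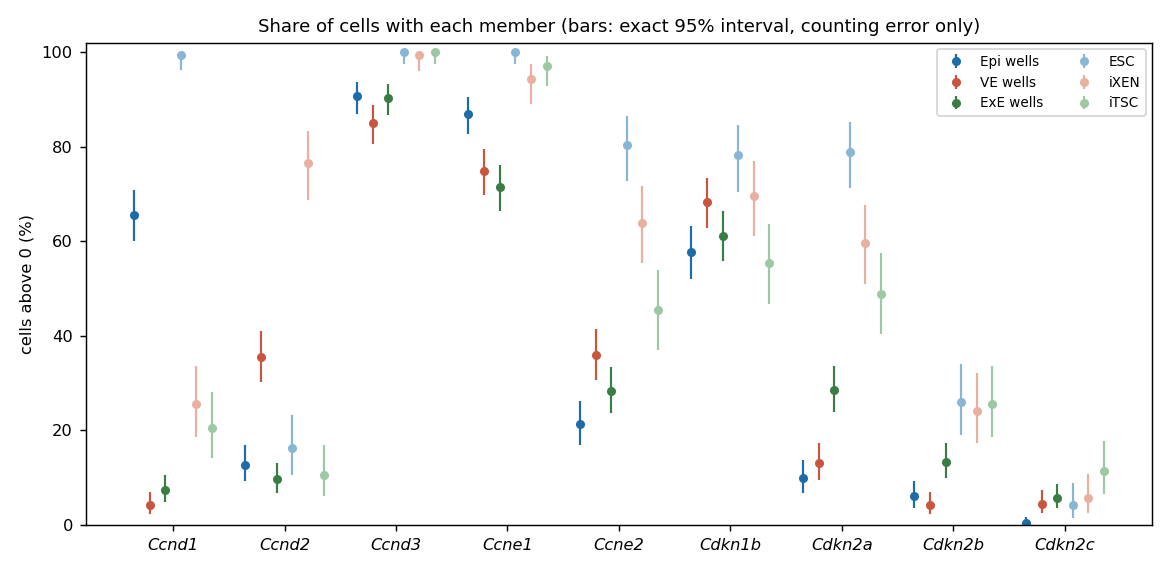
Share of cells above 0 (%) for each member in the 6 groups, with exact 95% intervals for counting error only. Ccnd3 and Ccne1 are found in most cells of every group, and Cdkn2c in at most 11.3%.

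To compare lineages within the RtL-embryoids, the ratio of group means (TP10k + 0.01) was taken and a gene was counted where it was at least 2-fold and had the same sign on all 3 plates. Over the 12127 genes found in at least 10% of cells on average over the 6 groups, 28.3% met this between VE and Epi wells, 20.9% between ExE and Epi wells and 20.3% between ExE and VE wells. Among the 8 members that passed the filter (all but Cdkn2c), 4, 3 and 5 did so. Ccnd1 was 40.8-fold lower in VE than in Epi wells (log2 ratio -5.75, -4.96 and -5.40 on plates 3, 4 and 5), and Ccne1 was 2.28-fold lower (-1.41, -0.91 and -1.26). Ccnd2 was 2.57-fold higher in VE wells, but its log2 ratio was 0.50, 1.62 and 2.36 on the plates and 0.9957 without plate 5, just under 2-fold. In cells with 5000 to 8000 genes it was 0.68 (0.3605 against 0.222 TP10k). Cdkn2b was 2.35-fold lower in VE wells, with a log2 ratio of -0.76 without plate 5. It was -0.61 in cells with 5000 to 8000 genes and -0.33 with a pseudocount of 0.1.

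Against Epi wells, ExE wells had 13.95-fold less Ccnd1 (log2 ratio -4.08, -3.48 and -3.87) and 2.71-fold more Cdkn2a (1.14, 2.03 and 1.43). With a pseudocount of 0.1 the Cdkn2a ratio was under 2-fold (log2 0.82). Cdkn2b was 2.04-fold higher and fell under 2-fold without plate 3 (log2 0.91), without plate 4 (0.89), in ExE wells that matched their markers (0.75) and in cells with at least 4000 genes (0.59). Against VE wells, ExE wells had 2.93-fold more Ccnd1, 2.74-fold more Ccnd3, 2.42-fold more Cdkn2a, 4.78-fold more Cdkn2b and 2.68-fold less Ccnd2. The Ccnd1 ratio (log2 1.67, 1.48 and 1.53) rests on 26 ExE and 13 VE wells above 0, and the pseudocount exceeds the VE mean. It was 0.38 with a pseudocount of 0.1, and in cells with 5000 to 8000 genes plate 5 turned (0.00118 in ExE and 0.00578 in VE wells). The plates gave -1.27, -1.52 and -1.49 for Ccnd2 and 1.37, 1.155 and 1.26 for Cdkn2a. With a pseudocount of 0.1 the log2 ratio of Cdkn2b fell from 2.26 to 0.79 and that of Cdkn2a from 1.28 to 0.74. Cdkn2b was above 0 in 13 VE wells, and its VE mean (0.0114 TP10k) was near the pseudocount of 0.01. Ccnd3 was 1.64-fold higher in ExE than in Epi wells and 1.67-fold lower in VE than in Epi wells, in the same direction on each plate. Cdkn1b reached 2-fold in none of these 3 comparisons, and Ccne2 only between VE and Epi wells without plate 5 (log2 1.03 against 0.58 with it). In the 232 ExE wells that matched their markers Ccne1 was at 2.04 TP10k, against 1.69 in all ExE wells, and Ccnd3 at 5.42 against 5.30.

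The same lineages in 2D showed the same split of D-type cyclins. Between iXEN cells and ESCs 30.7% of genes and 4 of 8 members were at least 2-fold apart: Ccnd2 was 13.6-fold higher in iXEN cells, and Ccnd1 (28.5-fold), Ccne1 (3.07-fold) and Ccnd3 (2.82-fold) were lower. Between iTSCs and ESCs, with 22.7% of genes, the 2 members were Ccnd1 (14-fold lower) and Ccnd2 (2.69-fold lower), and Ccnd3 was 1.84-fold higher in iTSCs. The Ccnd2 level in iTSCs was near the pseudocount of 0.01, and with a pseudocount of 0.1 its log2 ratio was -0.42. Between iXEN cells and iTSCs, with 23.2% of genes, the 4 members were Ccnd2, 36.6-fold higher in iXEN cells, and Ccnd3 (5.18-fold), Ccne1 (2.06-fold) and Ccnd1 (2.04-fold), which were lower. Ccne1 and Ccnd1 fell under 2-fold with median-of-ratios factors (log2 -0.88 and -0.90), with a pseudocount of 0.1 (-0.99 and -0.43) and in cells with 5000 to 8000 genes (-0.85 and -0.77), Ccne1 also with unscaled TPM (-0.93) and Ccnd1 also with geometric means (-0.70). Each culture was 1 plate, so these ratios have no spread.

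Against the 2D culture of the same lineage, all 3 compartments had more Cdkn1b, and Ccnd3 was lower in each. Between Epi wells and ESCs 14.2% of all genes were at least 2-fold apart (8.63% higher and 5.59% lower in Epi wells), as were 4 of 8 members. Between VE wells and iXEN cells these shares were 8.06% (2.94% higher and 5.13% lower in VE wells) and 4 of 8 members. Between ExE wells and iTSCs they were 16.4% (8.93% higher and 7.49% lower in ExE wells) and 3 of 8 members. Cdkn1b was 3.23-fold higher in Epi wells (log2 ratio 1.75, 1.56 and 1.76), 2.93-fold higher in VE wells (1.49, 1.43 and 1.74) and 3.39-fold higher in ExE wells (1.83, 1.74 and 1.71). With a pseudocount of 0.1 the Cdkn1b ratio was just under 2-fold in all 3 lineages (log2 0.99, 0.96 and 0.95). In the cells with 5000 to 8000 genes its mean was 0.223 TP10k in VE wells against 0.0759 in 35 iXEN cells and 0.160 in ExE wells against 0.0522 in 45 iTSCs. For Epi wells that window gave 0.226 against 0.244 in ESCs, but it held only 6 ESCs.

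Ccnd3 was 3.13-fold lower in Epi wells than in ESCs (log2 ratio -1.54, -1.69 and -1.71) and 3.51-fold lower in ExE wells than in iTSCs (-1.74, -1.69 and -2.05). In VE wells it was 1.85-fold lower than in iXEN cells (-0.84, -0.63 and -1.31), under 2-fold, and past it without plate 4 (-1.04). Ccnd1 was 1.88-fold, 2.68-fold and 1.87-fold lower in Epi, VE and ExE wells than in their cultures, and the VE value rests on 13 VE wells above 0. Without plate 3 the Epi ratio passed 2-fold (log2 -1.10), and without plate 4 the ExE ratio did (log2 -1.05), as it did in wells that matched their markers (-1.39). Ccnd2 was 6.95-fold higher in ExE wells than in iTSCs (log2 2.81, 2.71 and 2.87), although the share of cells above 0 was 9.63% in ExE wells and 10.6% in iTSCs. The highest ExE cell stood at 7.65, 9.66 and 7.67 TP10k on plates 3, 4 and 5, and the highest iTSC at 0.759. Ccnd2 was 2.69-fold higher in Epi wells than in ESCs (log2 2.14, 1.18 and 0.56, with 0.90 without plate 3), and 1.97-fold lower in VE wells than in iXEN cells (log2 -1.04 without plate 5).

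Cdkn2a was 2.92-fold lower in Epi wells than in ESCs (log2 ratio -0.73, -2.43 and -2.01) and 2.63-fold lower in VE wells than in iXEN cells (-0.97, -1.56 and -1.84), but 1.04-fold apart between ExE wells and iTSCs (0.47, -0.34 and -0.52). With a pseudocount of 0.1 the Epi and VE ratios of Cdkn2a were under 2-fold (log2 -0.89 and -0.82). In cells with 5000 to 8000 genes the Epi ratio was 0.11, with only 6 ESCs in that window. Cdkn2b was 2.49-fold lower in VE wells than in iXEN cells. In cells with 5000 to 8000 genes its log2 ratio was -0.44 (0.0145 against 0.0232 TP10k), and with a pseudocount of 0.1 it was -0.36. Over all cells Ccne1 was within 1.47-fold in the 3 lineages and Ccne2 within 1.69-fold. In cells with 5000 to 8000 genes Ccne2 was past 2-fold between ExE wells and iTSCs (log2 1.02). Between Epi wells and ESCs Ccne2 was at -0.83 without plate 5, and with geometric means Ccne1 was at -0.76 between Epi wells and ESCs. The 3D comparisons of a lineage do not share samples with each other, while each 3D group also enters the comparisons between compartments.

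**Figure D4:**
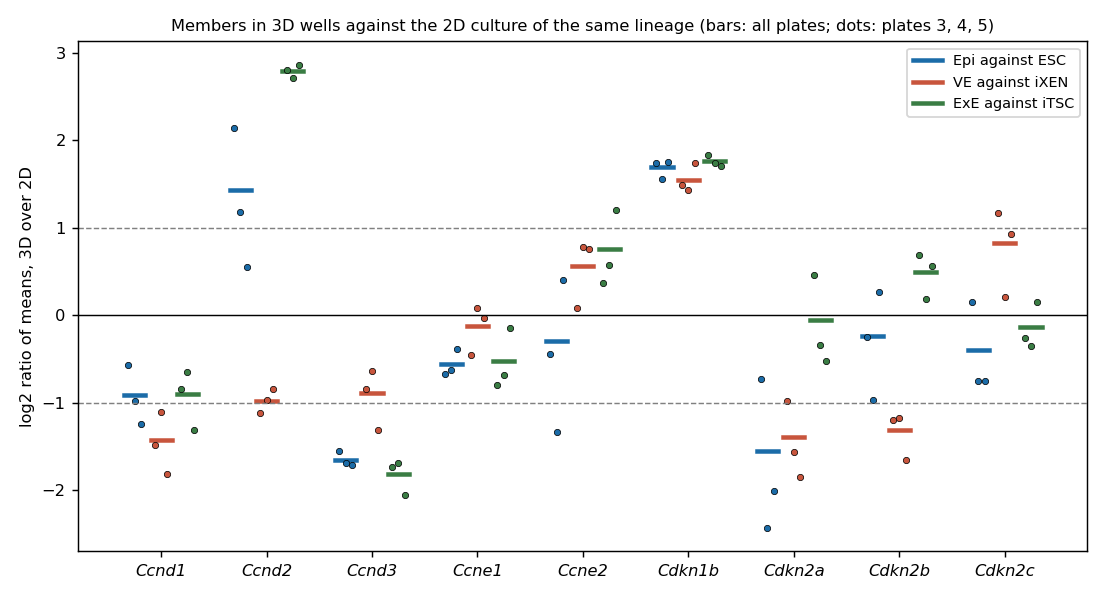
Log2 ratio of mean level, 3D wells over the 2D culture of the same lineage, for each member; short bars are all plates, dots are plates 3, 4 and 5, and dashed lines mark 2-fold. Cdkn1b lies between 1.43 and 1.83 on all plates of all 3 lineages, and Ccnd3 below 0 on all.

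The other genes of the pathway were read from fixed lists. Of 6 kinase genes, Cdk4 was the most abundant, at 18.5, 15.9 and 14.25 TP10k in Epi, VE and ExE wells. Cdk6, the other partner of D-type cyclins, was at 0.154, 0.0234 and 0.122, and Cdk2, the partner of cyclin E, at 0.823, 1.86 and 0.686. Between VE and Epi wells Cdk2 was at least 2-fold higher and Cdk6 and Mnat1 lower, between ExE and VE wells Cdk6 was higher and Cdk2 lower in ExE wells, and between ExE and Epi wells 0 of 6 kinase genes were that far apart. Over all genes the shares were 28.3%, 20.3% and 20.9% in the same order. Of the 3 compartments the VE wells had the least Ccnd1, Ccne1 and Cdk6 and the most Cdk2. The pocket protein gene Rb1 was 0.547 TP10k in VE, 0.3455 in ExE and 0.162 in Epi wells and 0.421, 0.265 and 0.0777 in iXEN cells, iTSCs and ESCs. Of the 3 pocket protein genes Rb1 was at least 2-fold higher in VE and ExE than in Epi wells. Rbl1 was at least 2-fold lower in VE than in Epi wells and higher in ExE than in VE wells (log2 1.34). Over all genes 28.3% (VE against Epi), 20.9% (ExE against Epi) and 20.3% (ExE against VE) were that far apart.

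Of 10 E2F and DP genes, 2 were at least 2-fold lower in VE than in Epi wells (E2f1 and Tfdp2) and 0 higher, where 1789 of 12127 genes were lower. Of 15 S phase targets of E2F, 4 were at least 2-fold lower in VE than in Epi wells and 0 higher. Over all genes 28.3% were that far apart. The median log2 ratio of the 15 was -0.75 beside -0.08 over all genes tested. Mcm2, Mcm6 and Mcm7, which encode subunits of the replicative helicase, were among those lower in VE wells. Between ExE and Epi wells 0 of 15 were 2-fold apart (median -0.51 beside 0.07), and between Epi wells and ESCs 1 was, Rrm2, lower in Epi wells (median -0.55 beside 0.12). Over all genes 20.9% and 14.2% were 2-fold apart in these 2 comparisons. Between iXEN cells and ESCs 9 of 15 were lower and 0 higher (median -1.35 beside 0.004005), where 1669 of 12127 genes were lower. Of 10 later cyclins and mitosis genes 0 were 2-fold apart in any comparison between 3D compartments (median log2 0.09, 0.19 and 0.27 beside -0.08, 0.07 and 0.13). Over all genes 28.3% (VE against Epi), 20.9% (ExE against Epi) and 20.3% (ExE against VE) were.

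Among the other CDK inhibitors, Cdkn1a (p21) was at 0.922, 0.874 and 1.91 TP10k in Epi, VE and ExE wells and at 4.41, 2.63 and 1.52 in ESCs, iXEN cells and iTSCs. It was lower in Epi wells and VE wells than in their cultures (log2 ratio -2.25 and -1.58), the opposite direction to Cdkn1b, and at 0.33 between ExE wells and iTSCs. Cdkn1c (p57) was at 0.674 TP10k in ExE wells against 0.150 in Epi and 0.143 in VE wells, and it was higher in each 3D group than in its culture (log2 1.93, 3.07 and 1.26). Its plates varied widely, at 0.0828, 0.320 and 0.0160 TP10k in VE wells against 0.00817 in iXEN cells and at 0.9675, 0.751 and 0.280 in ExE wells against 0.2765 in iTSCs. Cdkn3, which encodes a phosphatase of CDKs, was higher in Epi wells than in ESCs (log2 1.30). Cdkn2d, the remaining INK4 gene, was not analysed here. Of 8 genes of p27 and cyclin E turnover 0 were 2-fold apart between any compartment and its culture. Over all genes the shares were 14.2% for Epi, 8.06% for VE and 16.4% for ExE wells. The F-box gene Fbxw7, whose product marks cyclin E for degradation, was at 0.582 TP10k in ExE wells against 0.226 in Epi and 0.182 in VE wells.

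Of 7 mitogen-induced transcription factor genes, 5 were at least 2-fold lower in VE than in Epi wells (Myc, Fos, Egr1, Etv4 and Etv5) and 1 higher (Jun), with a median log2 ratio of -1.76 beside -0.08 over all genes tested. Of all 12127 genes 1789 were lower and 1640 higher. Etv5, a target of FGF signalling, was at 1.163 TP10k in Epi, 0.175 in VE and 0.393 in ExE wells and at 2.07 in ESCs. Between Epi wells and ESCs 4 of 7 were higher in Epi wells (Myc, Fos, Egr1 and Etv4) and 0 lower, with a median log2 ratio of 1.32 beside 0.12. Of all genes 8.63% were higher and 5.59% lower. Several of these ratios rest on low levels: Egr1 lay below the pseudocount of 0.01 in VE wells (0.00205) and ESCs (0.00612). Fos was at 0.0533 and Myc at 0.0738 TP10k in ESCs. Myc was at 0.806 TP10k in ExE wells and 0.868 in iTSCs against at most 0.207 elsewhere.

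By Pearson correlation of log2 levels over 12 points (9 plate-by-block groups of 3D wells and 3 cultures, which share pools and plates), the genes whose pattern was most like that of Ccnd1 were Alpl (r = 0.987), Tubb3 (0.981) and Hormad1 (0.981). Alpl encodes the alkaline phosphatase used to stain pluripotent cells, and it was at 1.45 TP10k in Epi wells and 2.33 in ESCs against 0.133 in VE and 0.339 in ExE wells. For Ccnd2 they were Sec22a (0.952), Haus7 (0.930) and Cuedc2 (0.929), for Ccnd3 Rusc2 (0.957), Cmtm6 (0.945) and Gtf2f2 (0.939), and for Ccne1 Mrpl13 (0.968), Tipin (0.956) and Msh6 (0.95), of which Tipin acts at replication forks and Msh6 in mismatch repair. For Ccne2 they were Kif5b (0.899), T2 (0.880) and Smarca5 (0.830), and for Cdkn1b Ccdc85c (0.947), Ankrd49 (0.943) and Rbm15 (0.936). For Cdkn2a they were Ablim1 (0.914), Taf6l (0.902) and Map1lc3a (0.890), and for Cdkn2b Ap3m2 (0.930), Syne2 (0.930) and Vcl (0.927). Among the members themselves the highest value was that of Ccnd1 with Ccne1 (0.853) and the lowest was that of Ccnd2 with Ccnd3 (-0.815), followed by Ccnd3 with Cdkn1b (-0.811).

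Across the cells of 1 group and plate, Ccne1 ranked with the mean of the 15 S phase genes in all 12 groups and plates, with Spearman rho from 0.157 (VE wells, plate 5) to 0.621 (ExE wells, plate 3). The values in ExE wells were 0.621, 0.499 and 0.417, above those of Epi wells (0.344, 0.206 and 0.189) and VE wells (0.221, 0.312 and 0.157). Ccne2 was above 0 in all 12 too (0.058 to 0.433), and with the mitosis genes it was above 0 in 2 of 12. Cdkn1b was below 0 with the S phase genes in all 12 (-0.282 to -0.013) and above 0 with the mitosis genes in all 12 (0.016 to 0.266). Ccnd3 ranked with the S phase genes in ExE wells (0.466, 0.346 and 0.408) and in iXEN cells (0.427), and less so in ESCs (0.234) and iTSCs (0.208). Its values lay between -0.058 and 0.125 in Epi and VE wells. Most of these values are weak, each rests on 97 to 142 cells that share a plate, and ExE wells include cells of more than 1 marker profile. The number of genes per cell itself ranked with the mitosis genes (median rho 0.3655) more than with the S phase genes (0.0895), and its part in the values above was not tested.

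**Figure D5:**
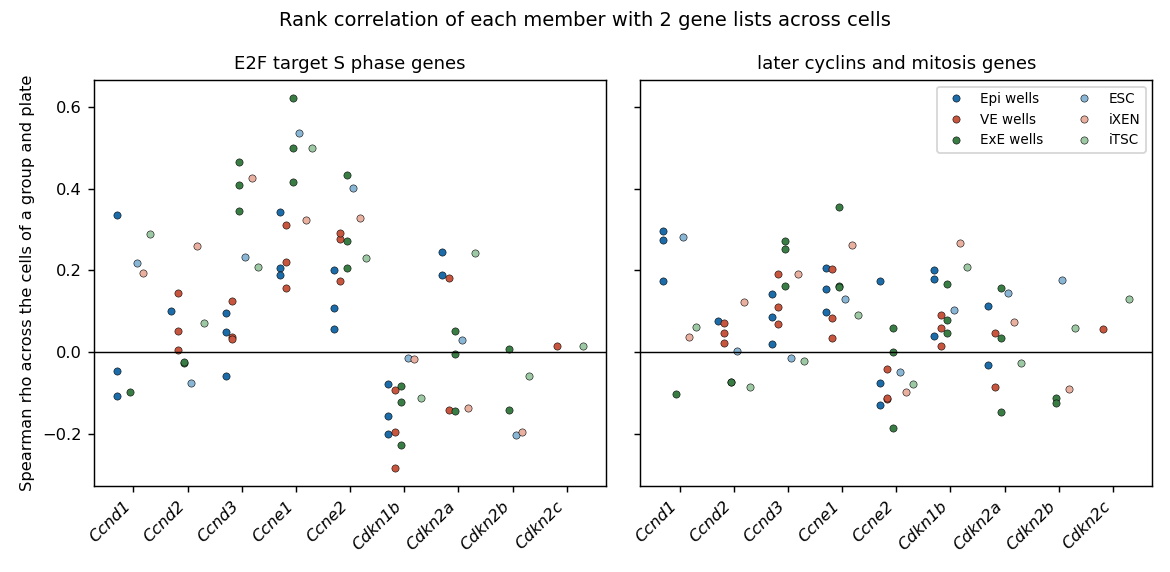
Spearman rho across cells between each member and the mean of the S phase list (left) or the mitosis list (right); each dot is 1 group and plate in which at least 10 cells held the gene, coloured by group. Ccne1 is above 0 with both lists in all 12, and Cdkn1b is below 0 with the S phase genes in all 12.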

How the data were processed

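Smart-Seq2 libraries of single wells were pseudoaligned by the authors with kallisto to the mouse transcriptome (GRCm38), after bcl2fastq 2.20, and the deposited table holds TPM per gene and well, 1931 columns, each matched to 1 sample title; 0 columns had no sample. Mitochondrial, ribosomal and pseudogene rows had been left out after the TPM were scaled, so the sum differs between wells. Read depth is not given in the table, so the limit on reads used in the study was not applied and gene number stands for depth. Cells with at least 2500 genes above 0 TPM were kept, scaled to a sum of 10000 (TP10k) and averaged with zeros included; doublets were not treated. Shares carry exact Clopper-Pearson 95% intervals. Genes in at least 10% of cells (mean of 6 groups) were compared as ratios of means with a pseudocount of 0.01, 2-fold being the threshold; ratios of low genes are understated on this scale. No test was run, since each condition is 1 pool or culture. Named genes were the 9 members, fixed pathway and marker lists, and the 3 genes nearest to each member. One gene of the S phase list is not reported here by name. Members and lists were chosen with earlier results of these data known. Other settings of cells, scaling, averaging, pseudocount, filter and plates were tried. Calculations used Python 3.11.15, pandas 2.3.3 and SciPy 1.17.1. The ratio calculation was tested on known changes put into real ESC cells, in commonly found genes only.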

Additional observations from a re-analysis of the deposited data

Results flagged for a closer look

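The level of Ccnd2 in 3D wells relative to 2D culture went one way in 2 lineages and the other way in the third. Its log2 ratio of means was 2.80 between ExE wells and iTSCs and 1.43 between Epi wells and ESCs, above 0 on each of plates 3, 4 and 5, and -0.98 between VE wells and iXEN cells, below 0 on each. In ExE wells 9.63% of cells held Ccnd2 and in iTSCs 10.6%. For Cdkn2b the ratio was 0.50 between ExE wells and iTSCs, above 0 on each plate, and -1.31 between VE wells and iXEN cells, below 0 on each, while between Epi wells and ESCs it was -0.23 and the plates differed in sign. In wells that matched their markers, plate 5 of the ExE wells lay below iTSCs (0.0302 against 0.0531 TP10k), so its sign turned. The same plate also lay below iTSCs in cells with 5000 to 8000 genes (0.03125 against 0.04825). The differences between lineages were not tested, since each 2D culture is 1 plate. In VE wells Cdkn2b was above 0 in 13 of 315 cells, and its log2 ratio to iXEN cells was -0.44 in cells with 5000 to 8000 genes.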

How the results depend on the processing

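Of 126 counts of members at least 2-fold apart under another setting, 116 stayed within 1.5 times the count reported, and leaving out each plate moved none further. With a pseudocount of 0.1 TP10k the counts were 1 (ExE against Epi), 2 (ExE against VE), 1 (Epi against ESC), 0 (VE against iXEN), 1 (iTSC against ESC) and 2 (iXEN against iTSC). That pseudocount is above the mean of Cdkn1b in each culture (0.0479 to 0.0761 TP10k). With median-of-ratios factors the iXEN against iTSC count was 2. In cells with 5000 to 8000 genes the counts were 2 (VE against Epi), 5 (ExE against iTSC) and 5 (iTSC against ESC), and in that window, which holds 6 ESCs, the Epi against ESC log2 ratios turned to -1.06 for Ccnd2, -0.10 for Cdkn1b and 0.11 for Cdkn2a. Of 936 log2 ratios under other settings these 3 were the ones past 2-fold that changed sign, and 23 that were not past 2-fold changed sign too, while 248 moved by more than the spread between plates or, for cultures, at all. Of 351 shares of cells 59 left their counting interval. The share of all calls that were higher in 3D depended on the scale: with geometric means 32.5% were higher in Epi wells than in ESCs, 18.8% in VE wells than in iXEN cells and 36.9% in ExE wells than in iTSCs, against 60.7%, 36.4% and 54.4% with arithmetic means, and with unscaled TPM 70.7% were higher in ExE wells than in iTSCs. With median-of-ratios factors 47.1% were higher in Epi wells than in ESCs and 54.95% in iTSCs than in ESCs (main 65.7%), and with unscaled TPM 52.8% were higher in iXEN cells than in iTSCs (main 42.7%). The median log2 ratio of all genes between ExE wells and iTSCs was 0.06, and 0.23 with unscaled TPM and -0.13 with geometric means. The causes were not tested. Cdkn2c passed 2-fold without the filter on genes only in 3 of the 9 comparisons. No paired analysis was possible because no result comes from a test and the labels give no replicate numbers, but the 3D blocks were compared within each plate.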
